A study of Mus musculus with 6 samples.

Results

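The genes described here are 32 genes of glycolysis, lactate transport and the hypoxia response, each taken as the row of the deposited count table that carries its symbol, out of 41388 genes in all. They comprise 20 genes of glucose uptake, glycolysis and pyruvate and lactate metabolism, 2 lactate transporters, and 10 genes of hypoxia signalling. All 32 were among the 15186 genes that passed the filter on low counts and were tested. The samples were cultures of fibro-adipogenic progenitors (FAPs), the mesenchymal cells of the muscle interstitium that give rise to fibroblasts and adipocytes, isolated from the muscle of wild-type male mice. They were grown in DMEM with 10% FBS and human FGF, and received either prostaglandin E2 (PGE2) at 500 nM or its vehicle daily over 2 days. PGE2 is a lipid mediator of inflammation that signals through G-protein-coupled receptors. Polyadenylated RNA was sequenced from 3 libraries per group, numbered 1 to 3 in each group. Whether the libraries of a group were made from different mice or from different cultures is not in the labels. The p-values therefore rest on how much these 6 libraries differ, and that spread may be technical.

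Glycolysis breaks glucose down to pyruvate in the cytosol. Lactate dehydrogenase turns pyruvate into lactate, and monocarboxylate transporters carry the lactate across the plasma membrane together with protons. Hypoxia-inducible factor 1 (HIF-1) is a transcription factor whose alpha subunit is marked for degradation by oxygen-dependent prolyl hydroxylases, and many glycolytic genes are among its known targets. In fibroblasts the same factor is known to act on enzymes that modify collagen. The labels give no oxygen tension for the cultures.

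Under PGE2 the lactate exporter Slc16a3 was 1.99-fold higher, with every PGE2 library above every vehicle library, and it was the 1 member of the 32 that passed the test without pairing. Most other members leaned upward by far less: 26 of 32 had a positive log2 fold change, against 7562 of 15186 tested genes (49.8%). The median log2 fold change, PGE2 over vehicle, was 0.74 for the 2 lactate transporters, 0.28 for the 10 hypoxia genes and 0.23 for the 20 glycolysis genes, beside -0.001 for all tested genes. By edgeR's quasi-likelihood test with Benjamini-Hochberg adjustment over all tested genes, 1 of 32 members was higher and 0 were lower at an adjusted p under 0.05, where 0.211% of all tested genes were higher and 0.132% were lower. At an unadjusted p under 0.05 in the same fit, 12 members were higher and 1 was lower, against 9.99% and 10.1% of all tested genes. The Wald test of DESeq2, without pairing, called 5 higher (Slc16a3, Pfkfb3, P4ha2, Ddit4 and Bnip3) and 1 lower (Vldlr), against 2.83% and 3.21% of the 13734 genes it gave an adjusted p (6.04% in either direction).

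Libraries with the same number deviated together from their group means, with correlations of 0.621, 0.169 and 0.422 for numbers 1, 2 and 3, so the numbers were also fitted as a block. The evidence was weakest for number 2, since PGE2 2 correlated more with vehicle 3 (0.252) than with vehicle 2. In this paired fit 13 of 32 members were higher and 2 were lower, against 6.91% and 7.51% of all tested genes. The 13 were Slc2a1, Pfkl, Tpi1, Gapdh, Pgam1, Pfkfb3, Ldha, Slc16a1, Slc16a3, Hif1a, Bnip3, P4ha2 and Ddit4, and the 2 were Hk1 and Vldlr. The count moved with the pairs used: 8 members passed without pair 1, 7 without pair 2 and 21 without pair 3, in either direction, where 9.11%, 7.58% and 33.3% of the genes tested in each of these fits passed. Those that passed whichever pair was left out were Slc16a3, Slc16a1, Pfkfb3, Bnip3, P4ha2 and Ddit4. Each of these fits kept only 2 pairs, so its p-values lean mostly on a spread pooled over genes. Passing them is therefore weak evidence that a call is stable. Slc2a1, Hif1a, Hk1, Pfkl, Tpi1, Gapdh and Ldha passed without pair 3 but not without pair 1 or pair 2, Pgam1 passed only without pair 1 of these, and Vldlr did not pass without pair 3. Counted by the libraries alone, 9 members had all 3 PGE2 libraries above all 3 vehicle libraries (13.7% of all tested genes) and 1 had them all below (12.2%), while the groups overlapped for 22. PGE2 was higher in 3 of 3 pairs for 22 members and lower in 3 of 3 for 2, where 26.6% of all tested genes were higher throughout and 25.5% were lower throughout.

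**Figure D1:**
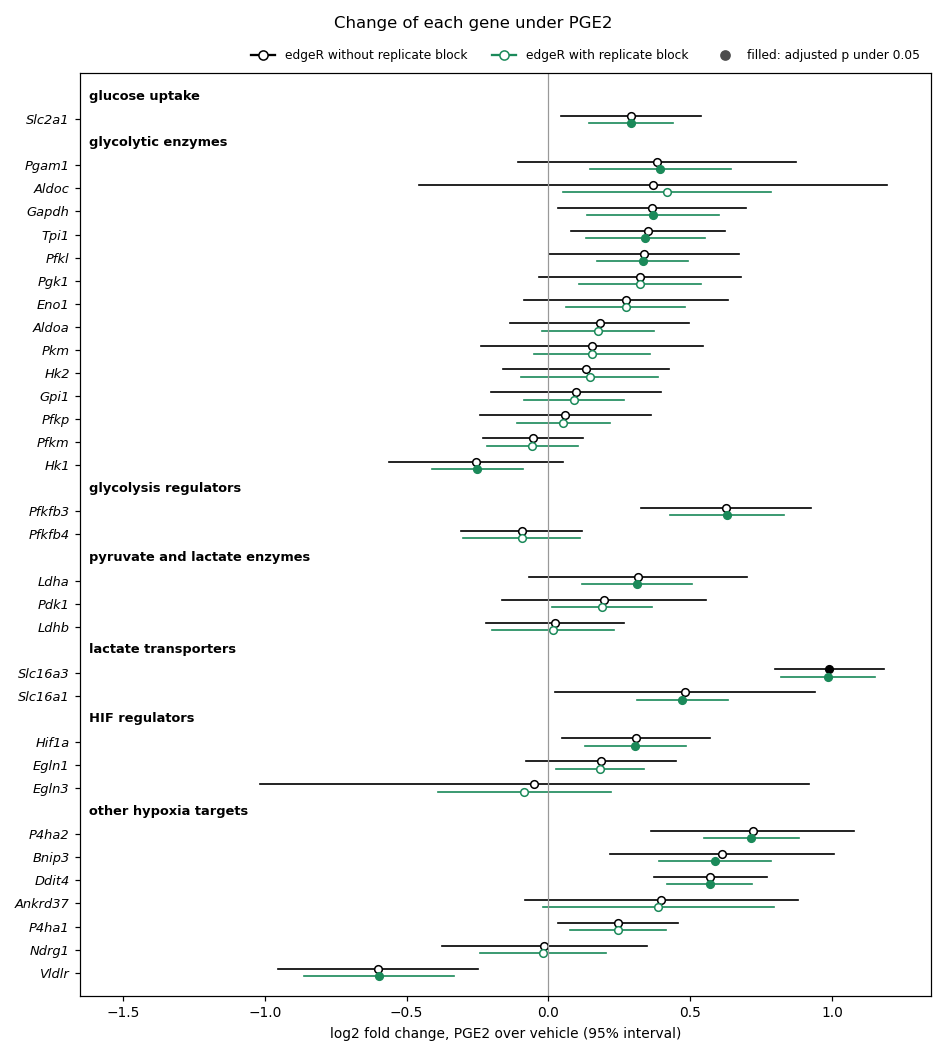
Log2 fold change, PGE2 over vehicle, of the 32 members on the horizontal axis with 95% confidence intervals, grouped by role down the page, from edgeR without (black) and with (green) the replicate block; filled circles have an adjusted p under 0.05. Slc16a3 lies farthest to the right at 0.99 and Vldlr farthest to the left at -0.60, and 26 of the 32 black circles lie right of 0.

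The libraries held 38150216 to 52730962 counts under PGE2 and 21006044 to 42708381 under vehicle, with the vehicle 2 library the shallowest, and 3 counts were worth 0.0569 to 0.143 CPM, the count per 1e+06 counts of a library. The members took 1.24 to 1.65% of the counts in PGE2 libraries and 1.16 to 1.41% in vehicle libraries. All 8 FAP markers passed the low-count filter, and Pdgfra, a receptor that defines these cells, averaged 1288 ± 145 CPM under PGE2 and 1282 ± 167 CPM under vehicle (SD, n = 3 each). Their log2 fold changes ran from -0.78 (Lum) to 0.95 (Pi16), with 3 higher and 2 lower in the paired fit. None passed without pairing by edgeR, where 2 were higher and 1 was lower at an unadjusted p under 0.05, and 2 were higher by DESeq2. The leukocyte marker Ptprc and the Schwann cell marker Sox10 were listed at 0 in every library, and Pax7, which marks muscle satellite cells, averaged 0.0234 ± 0.0218 CPM under PGE2 and 0.0233 ± 0.0403 CPM under vehicle (SD, n = 3 each). Markers of myogenic cells, which are themselves rich in glycolytic enzymes, were present: 10 of 10 were in the table, 8 passed the low-count filter and none was at 0 throughout. Their summed level was 24.1 to 163 CPM in PGE2 libraries and 53.3 to 238 CPM in vehicle libraries, highest in both libraries numbered 1. The groups' ranges overlapped for this list, its median log2 fold change was -0.83, and 0 of the 8 passed the test without pairing while 5 were lower in the paired fit. None of the 8 had an unadjusted p under 0.05 or passed by DESeq2, and all 8 were lower in 3 of 3 pairs. The summed levels of 2 scarce lists did not overlap, namely leukocyte markers at 11.5 to 12.3 CPM in PGE2 libraries and 8.57 to 9.22 CPM in vehicle libraries, and Schwann cell markers at 4.24 to 5.10 CPM in PGE2 libraries and 6.91 to 8.09 CPM in vehicle libraries. In the paired fit 2 of 3 tested leukocyte markers were higher and 2 of 3 tested Schwann cell markers were lower. None of either list passed by edgeR without pairing. The adipocyte markers summed to 4.43 to 12.4 CPM in PGE2 libraries and 10.9 to 24.3 CPM in vehicle libraries, and all 3 that were tested were lower in the paired fit and in 3 of 3 pairs, with a median log2 fold change of -1.03. Of 6 pericyte and smooth muscle markers 3 were lower in the paired fit, while 3 had a positive log2 fold change. Their log2 fold changes ran from -0.98 to 0.58, and the paired fit with length correction called 1 lower. This list summed to 51.8 to 73.0 CPM in PGE2 libraries and 68.6 to 106 CPM in vehicle libraries. Of 5 tested endothelial markers 0 had a positive log2 fold change and 1 was lower in the paired fit. The endothelial list summed to 19.3 to 33.7 CPM in PGE2 libraries and 21.6 to 47.5 CPM in vehicle libraries. Of 4 tenocyte markers 2 had a positive log2 fold change, over a range of -0.54 to 0.64. The paired fit called 1 of the 4 lower, and it called 6.91% of all tested genes higher and 7.51% lower. As these are bulk cultures, a change in the number of cells of a type and a change in RNA per cell cannot be told apart, and the part of the marker genes in the results that follow was not tested.

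The lactate transporters had the largest median fold change of the roles with more than 1 member. Slc16a3 encodes MCT4, a monocarboxylate transporter known for lactate export from glycolytic cells, and lies at chr11:120948480-120960868 on the plus strand (GRCm38, GENCODE M21). Its level was 104, 118 and 98.3 CPM in PGE2 libraries 1 to 3, against 53.6, 54.5 and 52.8 CPM in vehicle libraries 1 to 3. The groups did not overlap, and the vehicle libraries lay within 2 CPM of one another. The means were 106.6 ± 10.1 CPM under PGE2 and 53.6 ± 0.834 CPM under vehicle (SD, n = 3 each). The log2 fold change was 0.99 ± 0.0827 (SE) with a 95% confidence interval of 0.80 to 1.18 and an edgeR adjusted p of 0.0188. The paired fit gave 0.99 with an interval of 0.82 to 1.15 and an adjusted p of 5.89e-05. On the log2 scale PGE2 exceeded vehicle by 0.949, 1.112 and 0.896 in pairs 1, 2 and 3. Its fold change ranked 151st from the top among the 15186 tested genes. The call without pairing depended on single libraries: the edgeR adjusted p was 0.151 without PGE2 library 2, 0.101 without PGE2 library 3, 0.177 without vehicle library 2 and 0.0501 without vehicle library 3, fits in which 0 genes of the whole table were called and 1494, 2597, 1871 and 3697 had an unadjusted p under 0.05. The fold change stayed between 0.91 and 1.05 on the log2 scale over all 6 fits that left out 1 library.

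Slc16a1 encodes MCT1, a monocarboxylate transporter of high affinity that moves lactate in either direction. Its level was 59.7, 89.3 and 88.7 CPM in PGE2 libraries 1 to 3 and 45.4, 63.1 and 61.8 CPM in vehicle libraries 1 to 3. The groups overlapped, since PGE2 1 lay below vehicle 2 and 3, yet each PGE2 library lay above the vehicle library of its own number. The log2 fold change was 0.48 ± 0.193 (SE), with an edgeR adjusted p of 0.230 without pairing and 0.00253 in the paired fit. The 2 transporters together summed to 163, 207 and 187 CPM under PGE2, against 99.0, 118 and 115 CPM under vehicle. Per kilobase of transcript, Slc16a3 made up 63.9, 57.4 and 53.1% of the monocarboxylate transporter transcript in PGE2 libraries and 54.7, 46.8 and 46.6% in vehicle libraries, so that its share overlapped between the groups although the share was higher in PGE2 in each pair. Bsg (basigin), the chaperone that brings both transporters to the cell surface, came from the further list of pyruvate and lactate genes: it stood at 863, 1048 and 994 CPM under PGE2 and 651, 751 and 815 CPM under vehicle, with a log2 fold change of 0.39 ± 0.121 (SE) and adjusted p-values of 0.158 without pairing and 0.0143 in the paired fit. Emb (embigin), a related chaperone chosen for mention after its values were seen, stood at 478, 982 and 1028 CPM under PGE2 and 296, 591 and 601 CPM under vehicle, with adjusted p-values of 0.328 and 0.000375 in the same order.

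**Figure D2:**
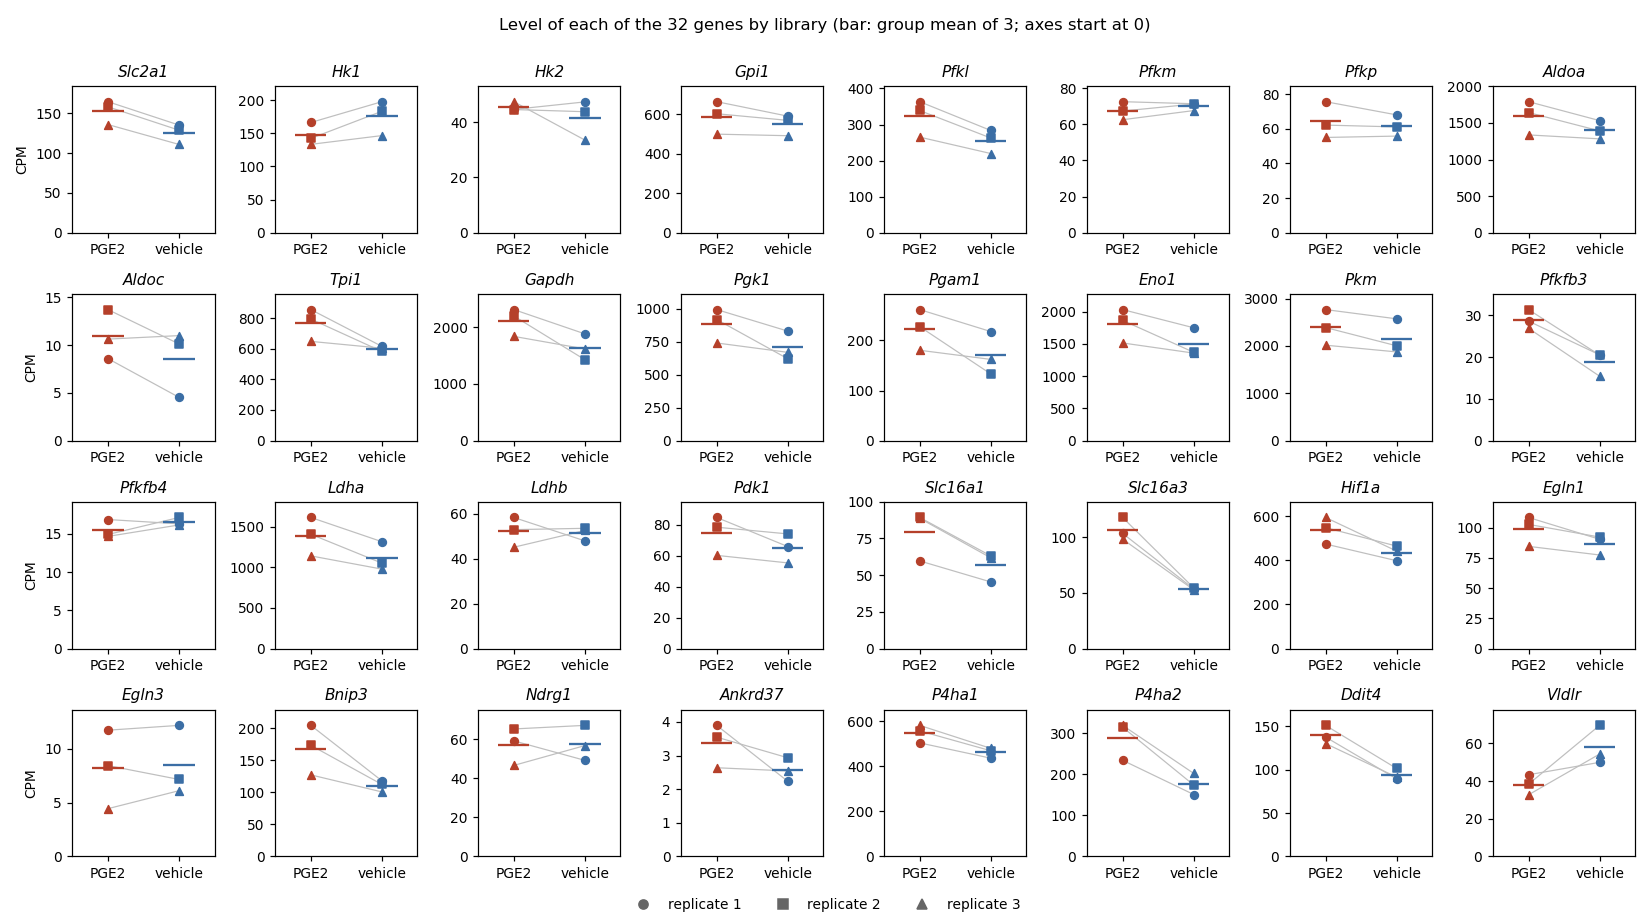
CPM of each of the 32 members by library, 1 panel a gene with its vertical axis starting at 0, PGE2 left of vehicle; symbols give the library number, grey lines join equal numbers and bars are group means (n = 3). All 3 PGE2 points of Slc16a3, Pfkfb3, P4ha2, Ddit4 and Bnip3 lie above the 3 vehicle points, while those of Gapdh and Ldha lie in part among them.

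Promoter windows are printed for 5 members that were higher in the paired fit, so that the sequence upstream of the genes of lactate formation and export can be read beside that of the hypoxia genes: both lactate transporters, the lactate-producing enzyme Ldha, and the hypoxia genes P4ha2 and Bnip3. Each window runs from 250 bases before to 50 bases after the RefSeq start (GRCm38.p6) and is written 5′ to 3′ on the gene's own strand. Capitals mark the HIF core letters ACGTG and GCGTG and the cyclic AMP response letters TGACG on either strand, so that a match on the other strand shows their reverse complement. The Slc16a3 window is chr11:120948817-120949116 on the plus strand, Slc16a1 is chr3:104638414-104638713 on the plus strand, Ldha is chr7:46845554-46845853 on the plus strand, P4ha2 is chr11:54100674-54100973 on the plus strand, and Bnip3 is chr7:138909457-138909756 on the minus strand.
Slc16a3: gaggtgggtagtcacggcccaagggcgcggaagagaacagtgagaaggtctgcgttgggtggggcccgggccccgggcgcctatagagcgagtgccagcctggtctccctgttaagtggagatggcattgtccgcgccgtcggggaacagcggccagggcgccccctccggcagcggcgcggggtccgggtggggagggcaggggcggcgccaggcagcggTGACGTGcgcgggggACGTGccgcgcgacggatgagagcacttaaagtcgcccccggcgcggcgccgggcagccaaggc
Slc16a1: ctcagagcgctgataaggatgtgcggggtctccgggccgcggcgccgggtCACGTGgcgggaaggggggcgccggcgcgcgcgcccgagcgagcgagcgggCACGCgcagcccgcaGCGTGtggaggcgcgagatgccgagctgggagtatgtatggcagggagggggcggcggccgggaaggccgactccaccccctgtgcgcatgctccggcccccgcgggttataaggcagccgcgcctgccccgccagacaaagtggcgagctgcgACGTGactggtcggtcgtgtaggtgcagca
Ldha: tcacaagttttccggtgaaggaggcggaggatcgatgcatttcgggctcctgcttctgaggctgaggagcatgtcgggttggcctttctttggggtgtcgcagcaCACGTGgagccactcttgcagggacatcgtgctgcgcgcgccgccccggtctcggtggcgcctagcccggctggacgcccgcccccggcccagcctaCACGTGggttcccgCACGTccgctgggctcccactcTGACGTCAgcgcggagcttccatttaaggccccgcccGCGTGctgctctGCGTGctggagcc
P4ha2: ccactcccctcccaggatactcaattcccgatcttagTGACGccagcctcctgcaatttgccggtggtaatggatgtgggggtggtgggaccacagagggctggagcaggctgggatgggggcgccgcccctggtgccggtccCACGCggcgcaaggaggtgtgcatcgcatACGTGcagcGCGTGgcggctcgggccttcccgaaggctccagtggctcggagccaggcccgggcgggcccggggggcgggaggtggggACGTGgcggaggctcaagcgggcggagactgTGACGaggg
Bnip3: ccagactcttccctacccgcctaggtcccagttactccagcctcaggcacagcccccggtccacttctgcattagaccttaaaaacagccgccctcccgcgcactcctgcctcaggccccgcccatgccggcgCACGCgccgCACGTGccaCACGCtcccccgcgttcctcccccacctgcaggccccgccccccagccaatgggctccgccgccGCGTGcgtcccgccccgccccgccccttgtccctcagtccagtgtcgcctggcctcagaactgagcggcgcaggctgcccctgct
The Slc16a3 window held ACGTG at positions -27 and -14 from the start, and the first of these overlaps its only TGACG at -29. Of the printed windows, those of Slc16a1, Ldha and Bnip3 held the palindrome CACGTG, which is counted on both strands. It was also in windows of Pfkfb3, Hif1a and Pfkm. Ldha alone among the members held the full cyclic AMP response letters TGACGTCA. The other RefSeq window of Ldha, chr7:46846832-46847131, is not printed and held GCGTG and TGACG but not ACGTG. Of the 31 members with a window in the RefSeq table, Ndrg1 having none, 22 held ACGTG in 25 of their 45 windows (55.6%), against 19.62% of all 32851 windows and 24.7% of the 13540 windows of tested genes. GCGTG was in 57.8% of the members' windows, against 32.39% of all windows and 49.3% of those of tested genes, and TGACG was in 22.2%, against 20.81% and 29.9%. The members were listed in part as known HIF targets, so the first share describes the list as well as the sequences. A match is a description of letters and not a site in use. The windows of Tpi1, which was higher in the paired fit, and of Vldlr, which was lower, held none of these letters, while 1 of the 2 windows of Hk1, which was lower, held both ACGTG and GCGTG.

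Glucose entry and the first steps moved unevenly. Slc2a1 encodes GLUT1, the glucose transporter of most dividing cells, and stood at 165, 158 and 136 CPM in PGE2 libraries 1 to 3, against 135, 129 and 111 CPM in vehicle libraries 1 to 3. The groups were separated by a narrow margin, and the 3 pairs gave nearly the same log2 difference of 0.284, 0.297 and 0.293. The log2 fold change was 0.29 ± 0.106 (SE), with an edgeR adjusted p of 0.194 without pairing and 0.0179 in the paired fit. Hexokinase traps glucose as its phosphate, and the 2 isozymes among the members had fold changes of opposite sign. Hk1 was 166, 142 and 133 CPM under PGE2 and 198, 183 and 147 CPM under vehicle, lower in 3 of 3 pairs although the groups overlapped, with a log2 fold change of -0.25 ± 0.132 (SE) and adjusted p-values of 0.325 without pairing and 0.0439 in the paired fit. Hk2, the isozyme known as a HIF target, was 44.7, 44.6 and 47.5 CPM under PGE2 and 47.4, 43.8 and 33.6 CPM under vehicle, and its log2 pair differences of -0.085, 0.026 and 0.499 show that pair 3 alone set it apart. Per kilobase, Hk2 made up 17.2, 19.6 and 21.6% of the hexokinase transcript in PGE2 libraries and 15.7, 15.6 and 15.1% in vehicle libraries, without overlap, while Hk1 supplied most of the hexokinase transcript in every library.

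Among the 14 glycolytic enzymes 4 were higher in the paired fit (Pfkl, Tpi1, Gapdh and Pgam1) and 1 was lower (Hk1), against 6.91% and 7.51% of all tested genes. The PGE2 and vehicle libraries overlapped for 13 of the 14, while 25.9% of all tested genes had no overlap in either direction. Pfkl, the liver-type subunit of phosphofructokinase, the committed step of the pathway, was 363, 339 and 265 CPM under PGE2 and 284, 263 and 219.7 CPM under vehicle. PGE2 3 lay below both vehicle 1 and the other PGE2 libraries, so the groups overlapped, and the log2 fold change was 0.34 ± 0.144 (SE) with adjusted p-values of 0.247 without pairing and 0.0150 in the paired fit. The muscle-type Pfkm and platelet-type Pfkp had log2 fold changes of -0.05 and 0.06. The share of Pfkl in phosphofructokinase transcript per kilobase was 69.2, 70.3 and 67.0% under PGE2 and 64.9, 64.1 and 61.5% under vehicle, without overlap, and that of Pfkm was 17.9, 18.1 and 20.5% under PGE2 and 21.1, 22.5 and 24.5% under vehicle, also without overlap.

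Tpi1, which interconverts the 2 triose phosphates, was the single enzyme whose groups were apart, at 856, 794 and 648 CPM under PGE2 and 615, 582 and 603 CPM under vehicle. Its gap rested on pairs 1 and 2, with log2 differences of 0.476, 0.448 and 0.103 in pairs 1 to 3, and its adjusted p was 0.171 without pairing and 0.0381 in the paired fit. Gapdh, the oxidising step and often used as a reference gene, was 2310.1, 2197 and 1838 CPM under PGE2 and 1882, 1426 and 1616 CPM under vehicle. The lowest PGE2 library lay below the highest vehicle library, and the log2 fold change of 0.37 ± 0.142 (SE) gave adjusted p-values of 0.215 and 0.0422 without and with pairing. Pgam1, which moves the phosphate of phosphoglycerate, was 262, 227 and 180.3 CPM under PGE2 and 218, 133 and 162 CPM under vehicle, and passed in the paired fit (adjusted p 0.0435) but not in the paired fit with a correction for transcript length (0.116).

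Pgk1 and Eno1, the enzymes that yield ATP and phosphoenolpyruvate, were higher in 3 of 3 pairs but missed the threshold of the paired fit. Pgk1 was 994, 919 and 741 CPM under PGE2 and 831, 621 and 669.6 CPM under vehicle, and Eno1 was 2033, 1865 and 1515 CPM under PGE2 and 1750.3, 1370.2 and 1357 CPM under vehicle, with log2 fold changes of 0.32 and 0.27 and edgeR adjusted p-values of 0.0501 and 0.0793. Aldoa, the main aldolase, Gpi1, which isomerises glucose phosphate, and Pkm, the pyruvate kinase gene, were also higher in 3 of 3 pairs, with log2 fold changes of 0.18, 0.10 and 0.15, and did not pass in either fit. Aldoc, the brain-type aldolase, was scarce at 8.59, 13.7 and 10.6 CPM under PGE2 and 4.54, 10.1 and 11.0 CPM under vehicle, and its log2 fold change of 0.37 ± 0.345 (SE) did not pass. Aldoa made up 99.5 to 99.8% of aldolase transcript per kilobase over the 6 libraries. On the scale of CPM per kilobase of transcript, the highest levels among the members were those of Gapdh (1489 ± 174 under PGE2 and 1156 ± 161 under vehicle), Aldoa (1026 ± 149.5 under PGE2 and 905 ± 80.7 under vehicle), Pkm (983 ± 155 under PGE2 and 883 ± 153 under vehicle) and Eno1 (890.0 ± 130.3 under PGE2 and 736 ± 110.1 under vehicle), whose neighbours in this order overlapped within their SDs in the PGE2 group except for Gapdh.

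**Figure D3:**
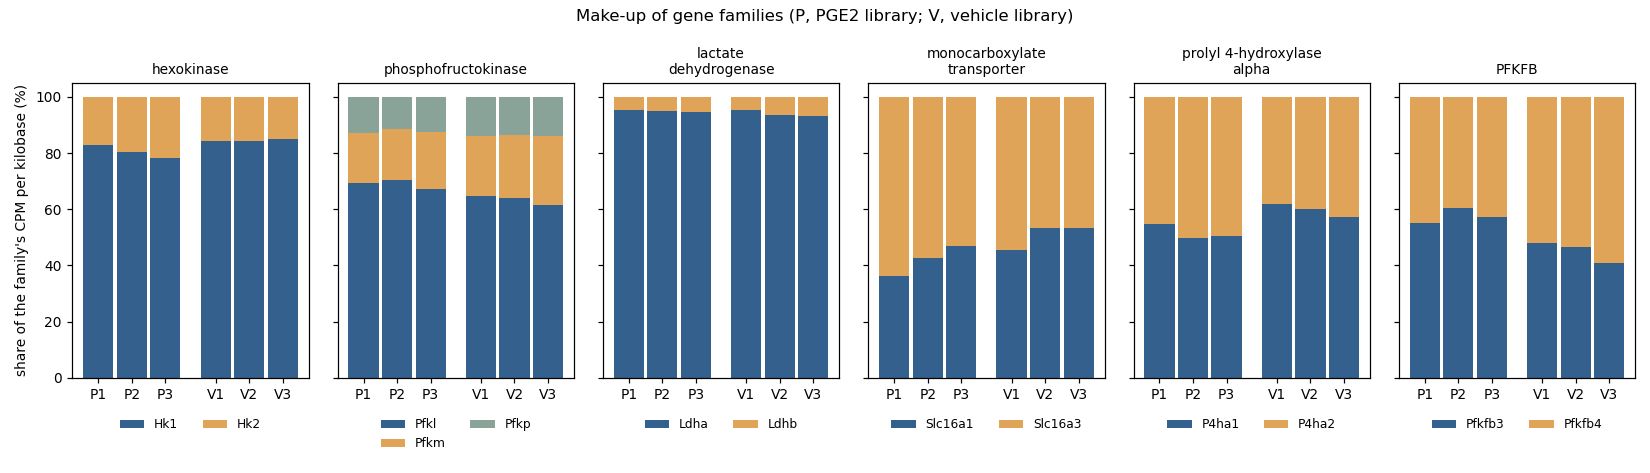
Make-up of 6 gene families as the percent of the family’s summed CPM per kilobase held by each member, 1 stacked bar a library, with PGE2 libraries (P1 to P3) left of vehicle libraries (V1 to V3). The shares of Hk2, Pfkl, P4ha2 and Pfkfb3 are higher in every PGE2 library than in any vehicle library, while those of Ldha and Slc16a3 overlap between groups.

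Of the bifunctional enzymes that set fructose 2,6-bisphosphate, the strong activator of phosphofructokinase, one member stood apart. Pfkfb3, the member with the highest kinase activity, was 28.6, 31.4 and 26.9 CPM under PGE2 and 20.6, 20.5 and 15.4 CPM under vehicle. All PGE2 libraries lay above all vehicle libraries, with log2 pair differences of 0.477, 0.615 and 0.801. The log2 fold change of 0.63 ± 0.128 (SE) gave an edgeR adjusted p of 0.0961 without pairing, which misses the threshold, and 0.00183 in the paired fit. Pfkfb4 was 16.9, 14.9 and 14.7 CPM under PGE2 and 16.3, 17.1 and 16.2 CPM under vehicle, with a log2 fold change of -0.09 ± 0.0914 (SE) whose 95% confidence interval ran from -0.31 to 0.12. As a share of the transcript per kilobase of this pair, Pfkfb3 made up 55.2, 60.5 and 57.2% under PGE2 and 47.8, 46.5 and 41.0% under vehicle, without overlap.

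At the end of the pathway, Ldha, the lactate dehydrogenase subunit that favours lactate formation, was 1615, 1408 and 1141 CPM under PGE2 and 1316, 1052 and 978 CPM under vehicle. PGE2 3 lay below vehicle 1, so the groups overlapped, and each PGE2 library was above its paired vehicle library. The log2 fold change was 0.32 ± 0.165 (SE), with an edgeR adjusted p of 0.329 without pairing and 0.0400 in the paired fit. Ldhb, the subunit of oxidative tissues, was 58.4, 53.0 and 45.1 CPM under PGE2 and 48.0, 53.6 and 52.6 CPM under vehicle, with a log2 fold change of 0.02 ± 0.104 (SE) and no pass in either fit. Pdk1, the kinase that shuts off pyruvate dehydrogenase, was 84.6, 78.4 and 60.2 CPM under PGE2 and 65.8, 74.0 and 55.3 CPM under vehicle. It had a log2 fold change of 0.20 ± 0.153 (SE) and adjusted p-values of 0.510 and 0.135 without and with pairing.

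The hypoxia genes divide into the HIF regulators and their targets. Hif1a, the oxygen-regulated HIF-1 subunit, was 474, 548 and 594 CPM under PGE2 and 398, 464 and 442 CPM under vehicle. The lowest PGE2 library was only a little above the highest vehicle library, without overlap, and the log2 fold change of 0.31 ± 0.111 (SE) gave edgeR adjusted p-values of 0.192 without pairing and 0.0316 in the paired fit. This is a transcript level and says nothing of HIF-1 protein. The prolyl hydroxylases that mark HIF for degradation did not pass in either fit: Egln1 was 108, 103 and 84.5 CPM under PGE2 and 90.4, 92.2 and 77.4 CPM under vehicle, with a log2 fold change of 0.19 ± 0.114 (SE), and Egln3 was 11.7, 8.43 and 4.43 CPM under PGE2 and 12.2, 7.15 and 6.10 CPM under vehicle, a wide spread within both groups.

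Bnip3, a mitophagy receptor on the outer mitochondrial membrane, was 204, 173 and 127 CPM under PGE2 and 118, 112 and 101 CPM under vehicle. The groups did not overlap, and the log2 pair differences were 0.794, 0.627 and 0.338. The log2 fold change of 0.61 ± 0.168 (SE) gave edgeR adjusted p-values of 0.138 without pairing and 0.00238 in the paired fit. An antisense gene shares 22.25% of the exon bases of Bnip3, and the sources used here do not say whether reads were counted by strand.

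P4ha1 and P4ha2 encode alternative catalytic subunits of collagen prolyl 4-hydroxylase, which hydroxylates procollagen so that its triple helix is stable. P4ha2 was 234, 314 and 319 CPM under PGE2 and 151, 174 and 202 CPM under vehicle. All PGE2 libraries were above all vehicle libraries, and the pairs differed by 0.634, 0.856 and 0.658 on the log2 scale. Its log2 fold change was 0.72 ± 0.153 (SE), with an edgeR adjusted p of 0.0971 without pairing and 0.000340 in the paired fit. P4ha1 was 505, 558 and 583 CPM under PGE2 and 437, 469.7 and 480.3 CPM under vehicle, likewise without overlap, with a smaller log2 fold change of 0.25 ± 0.0908 (SE) and adjusted p-values of 0.196 and 0.0570. P4ha2 made up 45.3, 50.2 and 49.4% under PGE2 and 38.1, 39.8 and 42.9% under vehicle, as a share of the P4ha1 and P4ha2 transcript per kilobase, and the groups did not overlap.

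Ddit4, also called REDD1, which restrains the growth kinase mTORC1, was 138, 151 and 130.3 CPM under PGE2 and 89.5, 101 and 91.5 CPM under vehicle. The groups lay well apart and each was tight, with a log2 fold change of 0.57 ± 0.0854 (SE) and edgeR adjusted p-values of 0.0534 without pairing and 0.000643 in the paired fit. Vldlr, a lipoprotein receptor, went the other way at 43.3, 38.3 and 32.7 CPM under PGE2 and 49.9, 69.5 and 54.3 CPM under vehicle. All PGE2 libraries lay below all vehicle libraries, and the log2 fold change of -0.60 ± 0.150 (SE) gave adjusted p-values of 0.121 without pairing and 0.0116 in the paired fit, but 0.324 in the paired fit with length correction, where its log2 fold change was -0.38. Ndrg1, a stress-response gene, was 59.0, 65.1 and 46.5 CPM under PGE2 and 49.1, 67.0 and 56.6 CPM under vehicle and had a log2 fold change of -0.01 ± 0.154 (SE), and Ankrd37, an ankyrin repeat gene, was low at 3.90, 3.55 and 2.64 CPM under PGE2 and 2.23, 2.93 and 2.54 CPM under vehicle. Neither passed in either fit. On the opposite strand Lrp2bp overlaps 22.68% of the exon bases of Ankrd37 and had 83 counts over all libraries. Ufsp2, also on the opposite strand, overlaps 3.7% of them and had 12354 counts over all libraries.

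**Figure D4:**
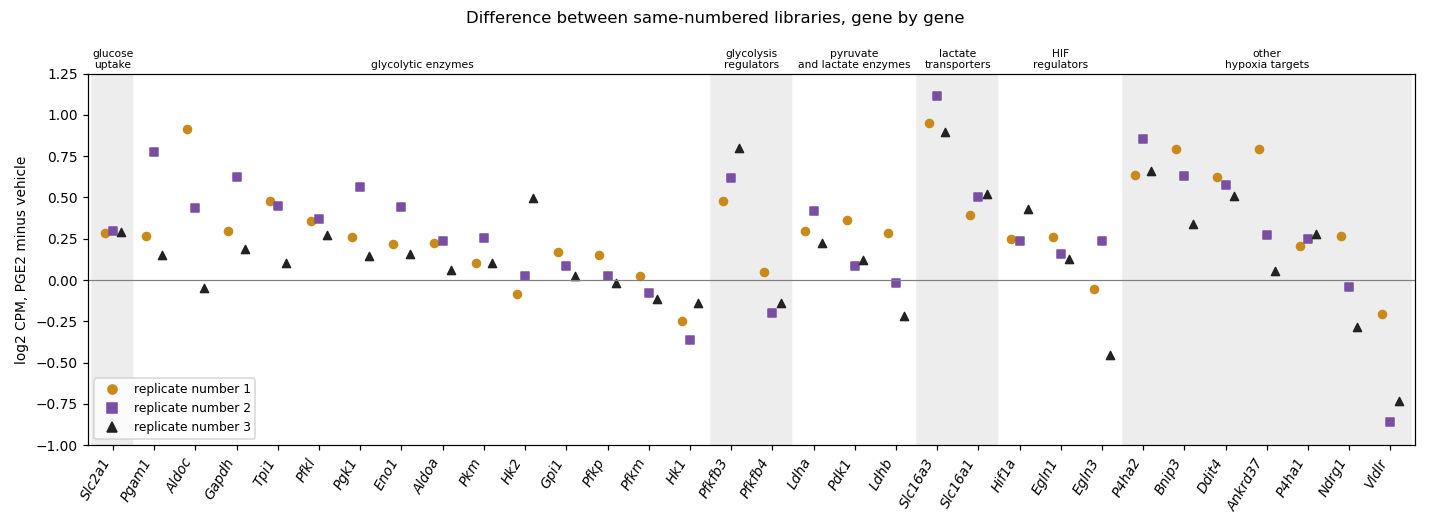
Difference in log2 CPM, PGE2 minus vehicle, between libraries of the same number on the vertical axis for each of the 32 members, grouped by role; the symbol gives the number. Slc16a3 lies at 0.949, 1.112 and 0.896, 22 members lie above 0 for all 3 numbers, and the median of the 14 glycolytic enzymes is lowest for number 3.

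The shift was not even over the pairs. The median log2 difference of the 14 glycolytic enzymes was 0.220, 0.311 and 0.104 in pairs 1, 2 and 3, and the number of the 20 glycolysis genes with a positive difference was 18, 16 and 14. For the 10 hypoxia genes the medians were 0.264, 0.244 and 0.203, and for the 2 lactate transporters 0.672, 0.806 and 0.709, beside -0.0046, 0.0107 and -0.0009 for all tested genes. Summed over the group, the glycolysis genes held 14372, 13046 and 10769 CPM under PGE2, against 12263, 10071 and 9818 CPM under vehicle, so the groups overlapped. The hypoxia genes held 1781, 1963 and 1924 CPM under PGE2, against 1397, 1560 and 1513 CPM under vehicle, without overlap.

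Fold changes moved with transcript length. Over 15098 tested genes with a length, Spearman's rho between length and log2 fold change was -0.428 across genes, which are not independent replicates and share the libraries, and it was -0.24 over the 32 members. The median log2 fold change was 0.17 in the shortest of 5 equal classes of genes (56 to 1558 bases) and -0.18 in the longest (4981 to 123179 bases), where 4 and 3 members lie. The members' median length was 2881.5 bases, against 2971 bases for all these genes. All 13 members in the 2 shortest classes had a positive fold change, with a median of 0.35 that became 0.23 with a correction for length, against 3 of 7 in the middle class (median -0.01) and 10 of 12 in the 2 longest (median 0.22, and 0.31 with the correction). Over all these genes the medians of the 5 classes, from shortest to longest, were 0.17, 0.08, -0.003, -0.07 and -0.18. The share of all genes with a positive fold change was not counted by class. For Gapdh the log2 fold change was 0.23 with the correction and 0.37 without it, and that of Aldoa was 0.06 with it and 0.18 without it. In pair 3 the length classes had medians of 0.0015 and -0.016 at the ends, with hardly a trend. In that pair the median log2 difference was 0.113 for the glycolysis genes, against 0.262 and 0.276 in pairs 1 and 2, and it was 0.203 for the hypoxia genes and 0.709 for the lactate transporters. With a length correction the medians were 0.22 for glycolysis genes, 0.81 for lactate transporters and 0.26 for hypoxia genes, and Slc16a3 passed without pairing at an edgeR adjusted p of 0.0333, the 1 member of 32 higher where 0.125% of all tested genes were higher and 0.0461% lower. In the paired fit with length correction 17 members were higher and 1 was lower, against 9.67% and 7.38% of all tested genes. It added Hk2, Pgk1, Pdk1, Egln1 and P4ha1 to those higher, and no longer called Pgam1 and Vldlr.

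**Figure D5:**
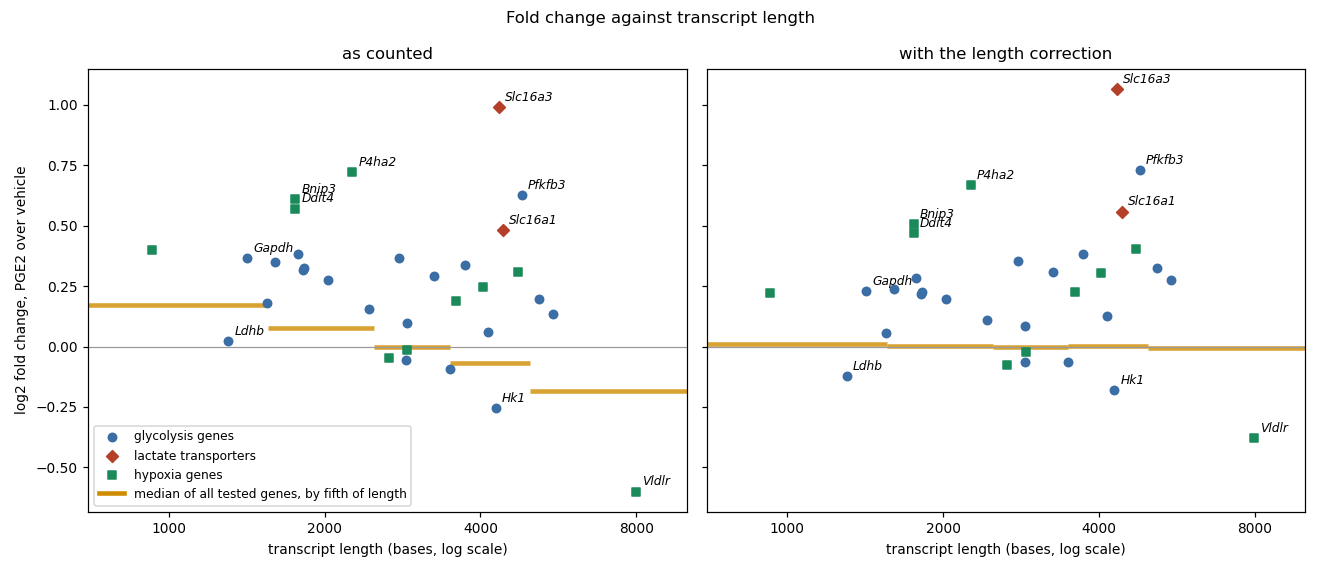
Log2 fold change, PGE2 over vehicle, of the 32 members against transcript length in bases on a log axis, as counted (left) and with the length correction (right); yellow bars are medians of all tested genes in 5 classes of length. The bars step down from 0.17 to -0.18 on the left and are near 0 on the right, and Slc16a3 lies well above the bar of its length on both sides.

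Genes of the same pathways that are not members were counted by lists. For comparison with each list below, the paired fit called 6.91% of all tested genes higher and 7.51% lower. Without pairing edgeR called 0.211% higher and 0.132% lower. At an unadjusted p under 0.05 in that fit the shares were 9.99% and 10.1%, and by DESeq2 2.83% and 3.21%. Among 14 tested further glycolysis genes 0 passed without pairing and 1 was higher in the paired fit, the median log2 fold change being 0.07 (3 higher at an unadjusted p under 0.05, and 1 higher by DESeq2). It was Bpgm, which makes 2,3-bisphosphoglycerate, with a log2 fold change of 0.45 ± 0.0938 (SE) and edgeR adjusted p-values of 0.0961 without pairing and 0.0165 with it. Tigar, a fructose bisphosphatase, Adpgk, an ADP-dependent glucokinase, and Slc2a8, a glucose transporter, had log2 fold changes of 0.32, 0.26 and 0.16 and did not pass. Among 17 tested further pyruvate and lactate genes 0 passed without pairing, while 2 were higher (Bsg and Emb) and 2 were lower in the paired fit, with a median of 0.05 (2 higher and 2 lower at an unadjusted p under 0.05, and 1 higher by DESeq2). The lower ones were the pyruvate dehydrogenase phosphatases Pdp1 and Pdp2, with Pdp2 at -0.40 ± 0.125 (SE) and a paired adjusted p of 0.0434. Pdk4, a further pyruvate dehydrogenase kinase, and Pdhb, a subunit of that complex, had log2 fold changes of -0.26 and 0.23 and did not pass. Of 15 pentose phosphate and glycogen genes 0 passed without pairing, and 2 were higher and 1 was lower in the paired fit, with a median of 0.11 (1 higher and 1 lower at an unadjusted p under 0.05, and 0 by DESeq2). Gys1, the glycogen synthase, was higher (log2 fold change 0.30 ± 0.109, paired adjusted p 0.0182), and Pygb, a glycogen phosphorylase, was lower (-0.26 ± 0.0910, paired adjusted p 0.0389).

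The further HIF pathway genes, 11 tested, had a median of 0.01 with 0 passing without pairing, and the paired fit called 3 higher and 1 lower (likewise 3 and 1 at an unadjusted p under 0.05, and 2 higher by DESeq2). The 3 were Elob, Eloc and Rbx1, components of the ubiquitin ligase that carries VHL, with log2 fold changes of 0.36, 0.35 and 0.33. All 3 transcripts are shorter than the median of all tested genes, at 537, 2014 and 1675 bases. The paired fit with length correction also called 3 genes of this list higher and 1 lower. The part of length in these calls was not tested. The lower one was Epas1, which encodes HIF-2alpha, at 11.5, 11.3 and 9.08 CPM under PGE2 and 18.0, 17.8 and 10.4 CPM under vehicle, with a log2 fold change of -0.53 ± 0.222 (SE) and a paired edgeR adjusted p of 0.0177. Among 28 further hypoxia targets, whose median was 0.28, the fit without pairing called 1 higher, the only gene of the 5 further lists to pass it. The paired fit called 13 of them higher and 1 lower, against 6.91% and 7.51% of all tested genes, while 12 were higher and 1 was lower at an unadjusted p under 0.05 and 9 were higher and 1 was lower by DESeq2. Ndufa4l2, a mitochondrial protein known to lower respiration in hypoxia, was 31.9, 52.9 and 36.6 CPM under PGE2 and 9.37, 18.2 and 15.1 CPM under vehicle, with a log2 fold change of 1.52 ± 0.290 (SE) and adjusted p-values of 0.0961 without pairing and 4.82e-05 with it. Vegfa, the angiogenic growth factor, was 363, 442 and 444 CPM under PGE2 and 263, 287 and 308 CPM under vehicle, with adjusted p-values of 0.0958 and 0.00164. Higd1a, another mitochondrial protein induced by hypoxia, had a log2 fold change of 0.75 ± 0.125 (SE) and adjusted p-values of 0.0644 and 0.00320. For all 3 the PGE2 libraries lay above the vehicle libraries without overlap.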

How the data were processed

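Polyadenylated RNA from cultured mouse fibro-adipogenic progenitors was sequenced from 3 PGE2 and 3 vehicle libraries, as paired-end reads per the labels' protocols. The authors deposited one table of raw counts per gene, with Ensembl identifiers and symbols. Per the submitters' processing notes, reads were placed on mm10. Which aligner, counter, strand setting and annotation were used is not given in the sources used here. Genes that overlap on opposite strands, or have near-identical copies such as the listed copies of Pgk1, Pgam1, Eno1 and Ldha, may therefore share reads. The 37 mitochondrial genes were listed at 0 counts. The members, the lists and the tests were chosen with earlier results of these data known.

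Counts were tested with edgeR 4.0.16 in R 4.3.3 (TMM scaling, quasi-likelihood test, filterByExpr defaults, Benjamini-Hochberg adjustment over the 15186 genes kept, threshold 0.05), and the procedure was tested on simulated data. CPM values use TMM-scaled library sizes, log2 CPM a prior count of 2. Genes named from the further pathway lists are the up to 4 with the smallest unadjusted p in the fit without the replicate block. From the further pyruvate and lactate list, all genes called in the paired fit are named as well. One gene that this rule names is not reported here. Replicate numbers were given in the labels without a meaning. Same-numbered libraries correlated at 0.621, 0.169 and 0.422 in their deviations from the group means over genes, so the number was treated as a pair on this evidence from the data. However, PGE2 2 correlated more with vehicle 3 (0.252) than with vehicle 2, and PGE2 3 also correlated with vehicle 2 (0.145). Paired results are given where they change a call. Alternatives were DESeq2 1.42.0, other scalings and filters, a lowess correction (span 0.3) for transcript length from GENCODE M21, and leaving out libraries or pairs. At these depths a count of 3 is worth 0.0569 to 0.143 CPM, and intervals cover the spread between 3 libraries only.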

Additional observations from a re-analysis of the deposited data

How the results depend on the processing

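Without pairing, 52 genes were called over the whole table (32 higher, 20 lower) and 1 member was called. Scaling by DESeq2 size factors, scaling by library totals and a mean of at least 1 CPM left the member count at 1 and the gene count between 48 and 65, but library totals gave 31 higher and 34 lower. Testing without a filter called 285 genes and 4 members (Slc16a3, Pfkfb3, P4ha2 and Ddit4), the length correction 26 genes and 1 member, and DESeq2 829 genes and 6 members. The replicate block called 2189 genes and 15 members, and with length correction 2589 genes and 18 members. Of the 32 members' own calls, the block moved 14 past the threshold and ended none.

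Leaving out 1 library, or 1 pair in the blocked fit, gave 0 to 5097 genes and 0 to 21 members called. Single libraries gave 0 genes by edgeR without PGE2 2, PGE2 3, vehicle 2 or vehicle 3 (1494, 2597, 1871 and 3697 at an unadjusted p under 0.05), 30 without vehicle 1 and 120 without PGE2 1, where P4ha2 also passed at an edgeR adjusted p of 0.0417. Pairs gave 1372, 1160 and 5097 genes without pair 1, 2 and 3. The median log2 fold change ranged over these fits from 0.162 to 0.349 for glycolysis genes, 0.650 to 0.832 for lactate transporters and 0.212 to 0.305 for hypoxia genes. With all libraries kept, it differed from the reported value by more than the SD of the 3 pairs’ medians with library totals for hypoxia genes (0.234) and with the length correction for lactate transporters (0.813). Slc16a3 kept its direction under every alternative run. None of the members that passed in the blocked fit changed sign under any alternative. Signs turned for members near 0: Ldhb was -0.016 with library totals, -0.122 with length correction and -0.125 with block and length correction. Over the fits leaving out a library or pair, Ldhb ranged from -0.119 to 0.128, Pfkp from -0.073 to 0.161, Egln3 from -0.394 to 0.312, Ndrg1 from -0.162 to 0.113 and Hk2 from -0.040 to 0.265. The causes were not tested.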
